A study of Mus musculus with 4 samples.

Results

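The library of OASIS wild-type mouse astrocytes labelled doxorubicin was compared with the library of the same genotype labelled non-treatment. These are 2 of the 4 libraries of the series, the others being OASIS deficient astrocytes with the same pair of treatments. All were primary cultured astrocytes. The treated cultures received doxorubicin at 1 µg/ml for 1 h when they were 5 days past confluence, and were kept for 24 h after the drug was washed away. OASIS is the protein of Creb3l1, a transcription factor anchored in the membrane of the endoplasmic reticulum. The labels name no strain, age or sex of the animals and no number of cultures behind a library. Each group holds 1 library, so no difference has a replicate check and no test was possible. The sizes of ratios are given with exact conditional binomial 95% intervals, which cover counting error only.

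Doxorubicin slips between DNA bases and traps type II topoisomerases on cut DNA, leaving double-strand breaks. The breaks activate the kinases ATM and ATR, which stabilize the transcription factor p53. p53 raises transcription of genes that arrest the cell cycle, of genes that start cell death, and of its own inhibitor Mdm2. Astrocytes, the glia that supply neurons and clear transmitter, also answer injury with a reactive programme of secreted acute-phase proteins, complement and matrix genes.

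Estimated counts summed to 19518653 in the untreated and 22559613 in the doxorubicin wild-type library, and to 17481188 and 20171539 in the deficient pair. Counts were scaled to library size as CPM, and every log2 ratio is of CPM + 1, doxorubicin over untreated, which understates the change of low genes. Of 50957 autosomal genes, 15104 had a mean of at least 1 CPM over the wild-type pair, and these are called all genes. Genes of the sex chromosomes separated the libraries by treatment label: Xist, which silences an X chromosome in female cells, had 1 count untreated and 2547 with doxorubicin, and Ddx3y, a Y-linked helicase gene, had 1567 and 0. The deficient pair was split the same way, with Xist at 0 and 2742 counts and Ddx3y at 742 and 0. Treatment and sex of the culture cannot be told apart in any ratio that follows. The genes that usually report on the drug differed far more between genotype labels than between treatment labels: Cdkn1a, the main arrest target of p53, had 25804 and 34221 counts in the wild-type pair and 3204 and 3926 in the deficient pair. Top2a, a marker of dividing cells, had 197 and 270 against 2365 and 3774. Creb3l1 was lower in both deficient libraries, with 966 and 636 counts against 260 and 235, in the direction of the genotype labels. No such gene checks the treatment labels, so every ratio is between libraries labelled doxorubicin and untreated, and holds only as far as those labels do. Among astrocyte markers, the glutamate transporter gene Slc1a3 had 18359 and 20267 counts in the wild-type pair and the water channel gene Aqp4 had 8780 and 8901. These counts are not scaled to library size. Once scaled, 2 of 10 astrocyte markers were above 0 in the wild-type pair, with a median log2 ratio of -0.15. Their summed level was 3925 CPM untreated and 3801 CPM with doxorubicin, and 11134 and 9804 CPM in the deficient pair. Microglia markers were present too, at a summed 6236 CPM untreated and 4544 CPM with doxorubicin, so the cultures were not of astrocytes alone. In such bulk RNA, fewer cells of a type and less RNA per cell cannot be told apart.

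The regulatory sequences of a gene that differed in both pairs and of the standard p53 target are shown first. Serpina3n, a secreted serine protease inhibitor that marks reactive astrocytes, had the most counts of the genes with a 2-fold difference, and Cdkn1a, the p53 target that encodes the cyclin-dependent kinase inhibitor p21, is a standard readout of this damage. The 250 bases before each start site are from the RefSeq promoter table on GRCm38.p6, plus strand, at chr12:104406458-104406707 for Serpina3n and chr17:29090729-29090978 for the upstream of 2 listed Cdkn1a starts. Capitals mark a 20-letter p53 site.
Serpina3n: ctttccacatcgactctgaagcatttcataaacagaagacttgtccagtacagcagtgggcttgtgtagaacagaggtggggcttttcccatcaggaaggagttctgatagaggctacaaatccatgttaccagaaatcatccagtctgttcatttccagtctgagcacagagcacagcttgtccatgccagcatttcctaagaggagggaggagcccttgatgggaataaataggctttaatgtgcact
Cdkn1a: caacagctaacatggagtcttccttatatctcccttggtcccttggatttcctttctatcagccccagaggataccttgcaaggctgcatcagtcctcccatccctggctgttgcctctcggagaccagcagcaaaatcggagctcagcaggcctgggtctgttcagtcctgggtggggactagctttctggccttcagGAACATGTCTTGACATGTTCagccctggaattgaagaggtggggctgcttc
Windows of 300 bases, reaching 50 bases past the start, were searched on both strands for TTCNNNGAA (the STAT motif, held by 8.30% of 32851 windows), TTTGAA (17.9%), CCAAT (37.4%) and TATAAA (13.6%), and none of these was in any of the 3 windows of Serpina3n and Cdkn1a. The p53 site was not among these motifs. It was added after the windows had been read, in 2 forms. The form tried first allowed no letter outside the consensus and matched 3 of 32851 windows (0.00913%) and 0 of 36 windows of measured p53 targets. The second form, with 1 letter allowed outside, was then chosen because the Cdkn1a element has such a letter, so its match there was fixed by that choice and supports nothing. It matched 29 windows in all (0.0883%) and, among the p53 targets, those of Cdkn1a, beginning at -51 from the start, and of the cyclin gene Ccng1. These matches describe letters only.

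At 2-fold, 669 genes were higher with doxorubicin (4.43% of all genes) and 850 lower (5.63%). The median log2 ratio over all genes was 0.00, with 49.4% above 0. When the counting interval had to lie wholly beyond 2-fold, 542 genes were higher (3.59%) and 688 lower (4.56%). The same genes in the deficient pair gave 206 higher (1.36%) and 262 lower (1.73%). Large ratios were concentrated among low counts in the wild-type pair: 30.1% of genes at 1 to 2 CPM met the rule of size, against 7.90% in the deficient pair, and 1.96% against 0.569% at 20 to 50 CPM. In the wild-type pair 69 genes had 0 counts untreated and at least 50 with doxorubicin, and 57 the reverse. The deficient pair had 4 and 5 such genes. The minimum and the CPM classes use the mean of the wild-type pair alone, so a gene can lie at another level in the deficient pair. A gene can also pass through a single high wild-type library. What the wider scatter comes from was not tested. With a minimum of 10 CPM the counts were 75 higher and 169 lower, so the lower share of the calls moved from 56.0% to 69.3%.

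**Figure D1:**
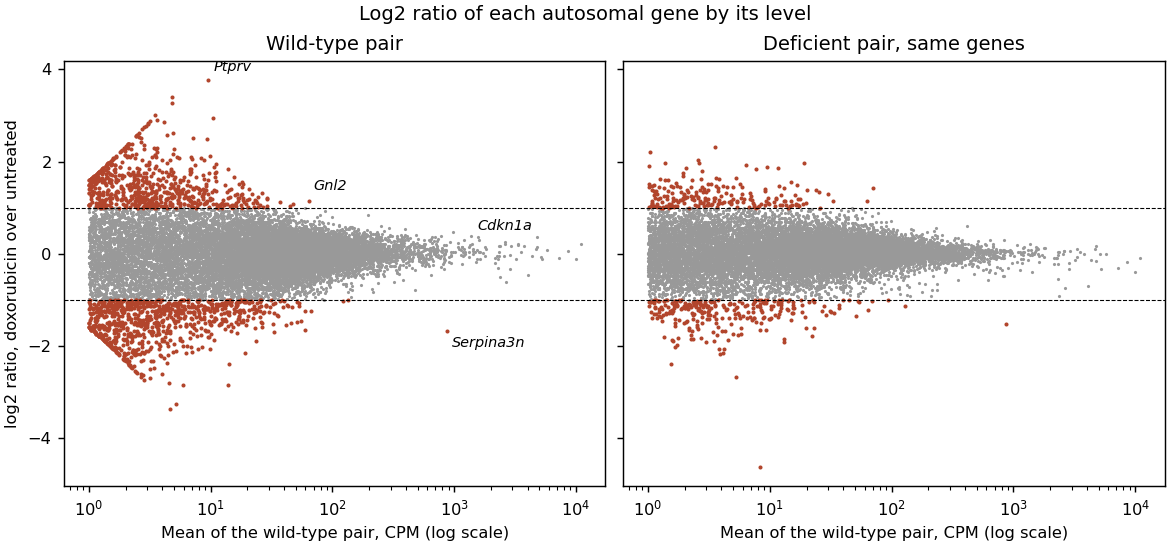
Each point is an autosomal gene, with the mean CPM of the wild-type pair on the log x axis and the log2 ratio of doxorubicin over untreated on the y axis, for the wild-type pair (left) and the deficient pair (right). Red points lie at least 2-fold from equal (dashed lines), and the wild-type pair has 669 higher and 850 lower against 206 and 262 in the deficient pair.

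Among 4298 genes with a mean of at least 50 CPM, 1 was at least 2-fold higher (0.0233%) and 11 were lower (0.256%). Serpina3n (ENSMUSG00000021091.8, GRCm38 chromosome 12, 104406729 to 104414329, plus strand) had 26574 counts untreated and 9589 with doxorubicin, a 3.19-fold lower level (3.11 to 3.26). In the deficient pair its counts were 20660 and 8305. Both doxorubicin libraries were below both untreated ones. Tnfrsf1b, the second receptor for tumour necrosis factor, had 1806 counts untreated and 645 with doxorubicin, 3.22-fold lower (2.94 to 3.53). Its deficient counts of 448 and 482 gave a log2 ratio of -0.09, so the low level in wild type with doxorubicin was near that of both deficient libraries. The genes Col3a1, a fibrillar collagen chain, and Lox, the lysyl oxidase that crosslinks collagen, had 1500 and 1613 counts untreated and 603 and 661 with doxorubicin. They were 2.86-fold (2.60 to 3.15) and 2.81-fold (2.56 to 3.08) lower, with deficient log2 ratios of -0.57 and -0.59.

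The other abundant genes that were lower included C3ar1, the receptor for the complement fragment C3a, with 3264 and 1832 counts. Zeb2, a zinc-finger repressor, had 1868 and 895 counts, Itch, a ubiquitin ligase, 1685 and 806, and Slc13a3, a dicarboxylate transporter, 1430 and 774. Itch was at -1.24 on counts and at -0.42 on the deposited TPM, so its ratio depended on the unit. Zc3h11a is uncertain, because its reads were divided between 2 overlapping identifiers: 1 had 1446 and 754 counts, the other 845 and 1606, and their sum of 2291 and 2360 gave -0.16. The only higher gene was Gnl2, a GTPase of ribosome assembly, with 785 and 2017 counts, 2.24-fold (2.06 to 2.43), and a log2 ratio of 0.10 in the deficient pair. On the deposited TPM its log2 ratio of 1.14 was 0.78, under 2-fold. Just under the threshold were Vps18, which acts in vesicle fusion (787 and 1815 counts, log2 0.99), and the mitochondrial selenoprotein gene Selenoo (678 and 1533, log2 0.96).

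**Figure D2:**
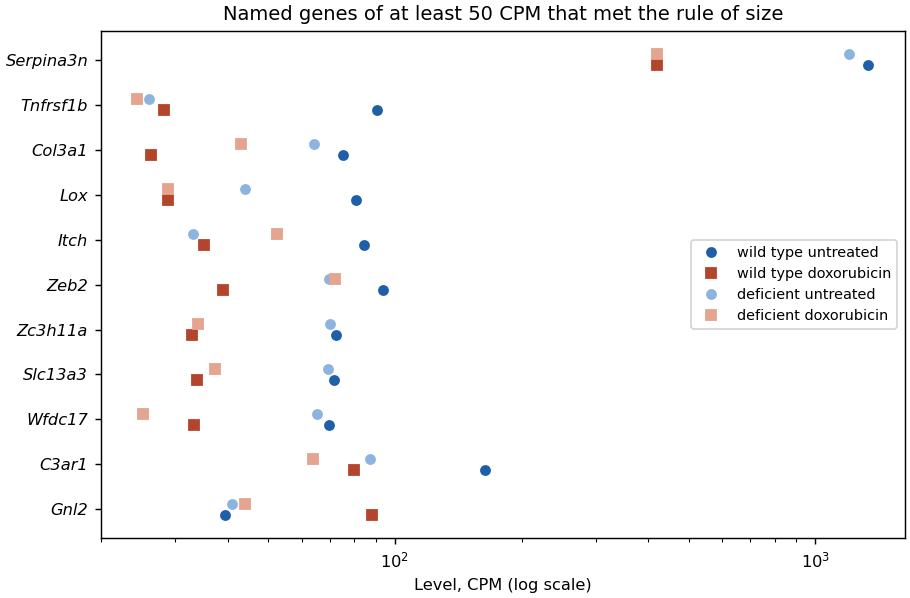
Level in CPM (log x axis) of 11 named genes with a mean of at least 50 CPM and a 2-fold difference in the wild-type pair, in each of the 4 libraries. Serpina3n and Wfdc17 are low in both doxorubicin libraries, whereas Tnfrsf1b is high in the wild-type untreated library alone.

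The number of p53 targets past 2-fold was near the background. Of 24 measured genes of arrest and signalling, 1 was 2-fold higher and 0 lower, with a median of 0.04, against 4.43% of all genes higher and a median of 0.00. Of 15 genes of cell death 0 were higher and 0 lower (median 0.07), and of 9 genes of p53 and its feedback 0 and 0 (median 0.00). The median levels of these lists were 44.4, 69.2 and 59.3 CPM, where 1.96% (20 to 50 CPM) and 0.392% (50 to 100 CPM) of all genes met the rule in either direction, so the counts of 0 say nothing particular to p53 targets. Cdkn1a (ENSMUSG00000023067.14, GRCm38 chromosome 17, 29090976 to 29100727, plus strand) had 25804 counts untreated and 34221 with doxorubicin, a ratio of 1.15 (1.14 to 1.17). Both wild-type libraries lay far above both deficient ones. Mdm2, the ubiquitin ligase that degrades p53, had 7627 counts untreated and 9150 with the drug, 1.04-fold (1.01 to 1.08), against 1454 and 1572 in the deficient pair, and its log2 ratio of 0.06 was -0.11 on the deposited TPM. Pmaip1, which encodes the death protein Noxa, had 4782 and 6197, 1.13-fold (1.09 to 1.17), against 89 and 97 in the deficient pair. The stress cytokine gene Gdf15 stood higher, with 1091 and 2193 counts, 1.75-fold (1.63 to 1.88), against 157 and 139 in the deficient pair. Trp53 itself had 2026 and 2712 counts, a log2 ratio of 0.22.

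Ptprv, a receptor tyrosine phosphatase gene that p53 switches on in mouse cells, was the 1 p53 target past 2-fold (ENSMUSG00000097993.7, GRCm38 chromosome 1, 135108497 to 135132594, minus strand). It had 9 counts untreated and 428 with doxorubicin, 41.4-fold (21.6 to 91.1), and the highest log2 ratio of the named genes, at 3.76 (2.45 on TPM). The deficient pair had 4 and 5 counts. Only the wild-type doxorubicin library was high. The pair mean of Ptprv was 9.57 CPM, and 15.2% of all genes at 5 to 10 CPM met the rule. In this pair 77 of all genes were at least 4-fold higher, so the call says nothing particular to p53 targets. The lowest genes on the lists of p53 targets were Ddb2, a damage sensor of excision repair (218 and 148 counts, -0.68), and Bak1, a pore-forming death protein (57 and 34 counts, -0.64). Whether p53 acts on each listed gene in these cells was not tested. At the other end of the cell-death genes was Aen, an apoptosis-enhancing nuclease, with 4157 and 6172 counts and 0.37.

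Genes that meet or remove the drug had 2 higher and 0 lower of 16 measured, against 4.43% and 5.63% of all genes. The 2 were Abcb1a and Slfn9 (1.13, and 0.71 on TPM). Abcb1a had a pair mean of 1.99 CPM, and 30.1% of all genes at 1 to 2 CPM met the rule. The median of the 16 had no firm direction, at 0.13, at -0.20 on TPM and at 0.00 with a minimum of 10 CPM. Top2b, the topoisomerase II of non-dividing cells, had 1554 and 1439 counts (-0.31), and Top2a, that of dividing cells, 197 and 270 (0.23, and -0.34 on TPM). Abcb1a, a gene of the drug pump P-glycoprotein, had 1 count untreated and 90 with doxorubicin, a ratio of 78.3 with a counting interval of 13.7 to 3126, and 1 and 2 in the deficient pair. Abcb1b, the other listed gene of this pump, was not among the called genes. The efflux pump genes Abcg2 and Abcc1 stood at 0.68 (479 and 895 counts) and -0.66 (3140 and 2278). Creb3l1 had 966 and 636 counts, a log2 ratio of -0.78, and 260 and 235 in the deficient pair.

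Genes of homologous recombination and the Fanconi pathway scattered in both directions. Of 27 measured, 4 were higher and 4 lower (median -0.25). Their median level was 6.50 CPM, and 15.2% of all genes at 5 to 10 CPM met the rule. Over all levels, 4.43% of all genes were higher and 5.63% lower, shares that also stand beside the lists that follow. Of 29 genes of excision and end-joining repair, at a median of 26.1 CPM, 1 was higher and 2 lower (median 0.11). Brca1, which directs repair by recombination, had 5 and 123 counts (2.35, and 1.16 on TPM), and Fanca, of the Fanconi core complex, 10 and 73 (1.48). Gen1, a resolvase of recombination junctions, had 60 and 0 counts. Brca1, Fanca and Gen1 had pair means of 2.81, 1.85 and 1.51 CPM, below the list median. Of all genes, 30.1% met the rule at 1 to 2 CPM and 26.5% at 2 to 5 CPM. The deficient pair had 252 and 265 counts of Brca1 and 123 and 244 of Gen1. Among 38 mitosis genes 5 were higher and 7 lower, with a median of 0.08, against a median of 0.54 with 37 of 38 above 0 in the deficient pair. Their median level in the wild-type pair was 5.36 CPM, in the class where 15.2% of all genes met the rule. The medians of the pairs rest on unlike levels: the list summed to 477 and 475 CPM in wild type and 2361 and 3374 CPM in deficient. Over all genes the median in the deficient pair was 0.02. Kif2c, a microtubule-depolymerizing kinesin, had 91 and 0 counts, against 763 and 1021 in the deficient pair. Nek2, a centrosomal kinase, had 86 and 6 counts (-2.08, and -1.36 on TPM), and 500 and 1047 in the deficient pair. Kif2c and Nek2 had pair means of 2.28 and 2.29 CPM, in the class of 2 to 5 CPM with 26.5%. Of 38 DNA replication genes 2 were higher and 0 lower (median 0.11), with Cdc7, the kinase that fires origins, at 13 and 101 counts (1.71). The median level of this list was 16.4 CPM, and 7.97% of all genes at 10 to 20 CPM met the rule. Cdc7 lay lower, at 2.53 CPM, in the class with 26.5%.

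Of 19 secreted acute-phase genes 1 was higher and 2, Serpina3n and Serpina3m, were lower, against 4.43% and 5.63% of all genes. The list median was -0.20 (-0.49 in the deficient pair). The higher gene was Apod, a lipid-binding apolipoprotein, with 62 and 274 counts (1.66). Serpina3m, a relative of Serpina3n on the same chromosome, had 64 and 0 counts, and 46 and 0 in the deficient pair; reads of such near relatives can be misassigned, so it is uncertain. Lcn2, an iron-scavenging lipocalin, had 55339 and 44865 counts (-0.50) and 22253 and 13532 in the deficient pair. Ttr, the thyroid hormone carrier made by choroid plexus, had 3701 and 2212 counts (-0.94) and 4687 and 2861. Gfap, the filament protein that defines astrocytes, had 22712 and 25639 counts, a log2 ratio of -0.03, and 113415 and 102215 in the deficient pair. Of 12 genes of the A1 reactive state 0 were higher and 0 lower (median 0.24, and -0.37 in the deficient pair). The wild-type median had no firm direction, at 0.14 with a pseudocount of 5 CPM and 0.01 with a minimum of 10 CPM. The summed level of this list was 2182 CPM untreated and 1894 CPM with doxorubicin in wild type. Of 14 complement genes other than C1q, 0 were higher and 2 lower, among them C3ar1 at -1.03, against 4.43% and 5.63% of all genes.

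Collagen chains were mostly below 0. Over all genes 4.43% were higher, 5.63% lower and 49.4% above 0. Of 23 collagen chains 0 were higher and 3 lower, Col3a1, Col6a2 (348 and 162 counts) and Col23a1 (166 and 75, under 2-fold on TPM at -0.78), with 7 above 0 and a median of -0.49 (0.04 in the deficient pair). Of 9 measured markers of fibroblasts and meninges, 3 were higher and 2 lower. Their median level was 15.1 CPM, and 7.97% of all genes at 10 to 20 CPM met the rule in either direction. The called markers lay at unlike levels. The higher markers Postn and Dcn had pair means of 4.83 and 2.18 CPM, and 26.5% of all genes at 2 to 5 CPM met the rule. The lower markers Pdgfrb and Col3a1 were at 33.0 and 50.8 CPM, in classes with 1.96% and 0.392%. The summed level of these markers was 385 CPM untreated and 218 CPM with doxorubicin (333 and 296 in the deficient pair). Lum, one of these markers, was at 0 counts in both wild-type libraries. Pdgfrb, a growth factor receptor of fibroblasts and pericytes, had 1014 and 345 counts, 3.38-fold lower (2.99 to 3.83). Postn, a matrix protein of the same cells, went the other way, with 2 and 219 counts, a ratio of 95.3 (26.1 to 791), or a log2 ratio of 3.26 that was 2.32 on TPM. The part of these cells in the collagen ratios was not tested.

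Immune genes were mixed. Of 35 interferon response genes 6 were higher and 3 lower, against 4.43% and 5.63% of all genes. Their median was 0.19 (0.01 in the deficient pair). The median level of the list was 21.5 CPM, where 1.96% of all genes met the rule. Zbp1, a sensor of left-handed nucleic acid, had 0 and 77 counts, while the deficient pair had 38 and 4. Apol9a and Apol9b, near-identical apolipoprotein L genes whose reads can be split between them, had 30 and 219 and 51 and 285 counts. These called genes lay below the list median, so the share of 1.96% is not that of their levels. Zbp1 had a pair mean of 1.68 CPM, and 30.1% of all genes at 1 to 2 CPM met the rule. Apol9a and Apol9b were in the class of 5 to 10 CPM, with 15.2%. Of 21 genes of MHC class I and antigen processing 0 met the rule, and its members stood on both sides of 0. The lowest were H2-Q6, a class I gene with near relatives (101 and 54 counts, -0.85), and Nlrc5, which activates class I genes (284 and 176, -0.81, and -1.22 on TPM). The immunoproteasome subunit genes Psmb8 (403 and 720 counts, 0.61), Psmb9 (79 and 190, 0.90) and Psmb10 (393 and 911, 0.98) were above 0, and below it in the deficient pair (-0.50, -0.70 and -0.49). That difference between pairs was not tested. Of 20 genes of NF-kB and its feedback 2 were higher and 1 lower (median 0.30), against 4.43% and 5.63% of all genes. The lower was Bcl3, a nuclear IkB protein, with 78 and 2 counts.

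**Figure D3:**
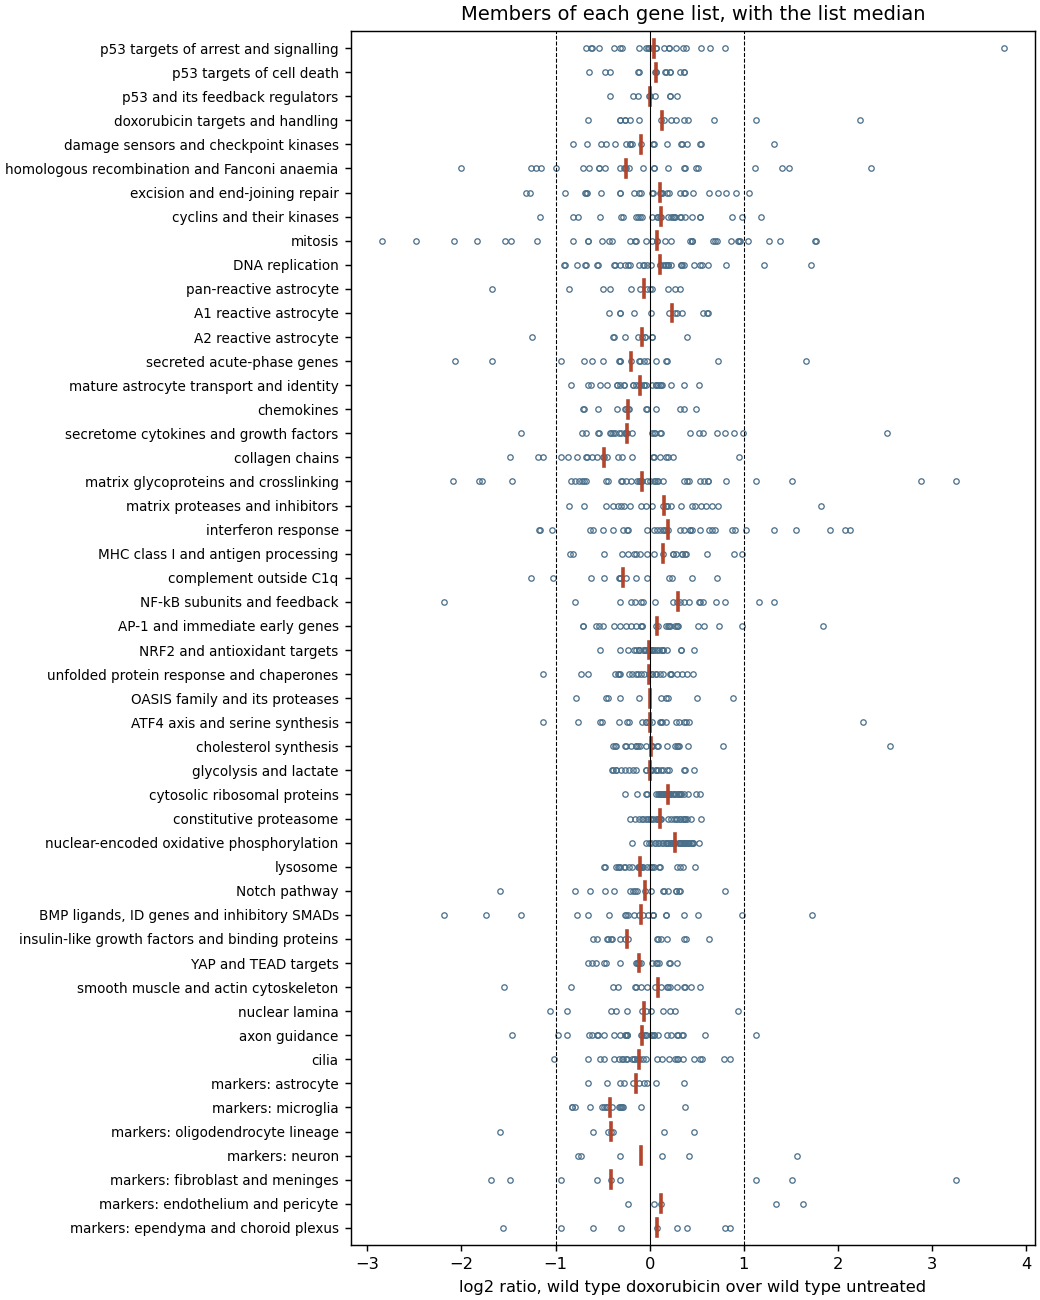
Each circle is 1 measured gene of a list, placed by its log2 ratio in the wild-type pair (x axis), and the red bar is the list median. Members of the p53 lists lie within 2-fold apart from Ptprv at 3.76, and the collagen chains have a median of -0.49.

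The pairs share no library, so a gene can be compared across them. In both pairs 26 genes were 2-fold higher (3.89% of those in wild type, 12.6% of those in deficient) and 48 lower (5.65% and 18.3%). Another 33 were higher in wild type and lower in deficient (4.93% and 12.6%), and 33 the reverse (3.88% and 16.0%). Over all genes the deficient pair had 1.36% higher and 1.73% lower, and the wild-type pair 4.43% and 5.63%. Genes higher in wild type were lower in the deficient pair at least as often as they were higher there. Of the 11 abundant lower genes 3 were also lower in the deficient pair, Serpina3n, Wfdc17 and the uncertain Zc3h11a. Wfdc17, a small secreted protein gene of macrophages, had 1388 and 760 counts in wild type and 1124 and 499 in deficient. Siglec1, the sialic acid receptor of macrophages, had 589 and 236 counts in wild type and 167 and 50 in deficient. Pik3r5, a phosphoinositide kinase subunit of leukocytes, had 268 and 75, and 175 and 51. Csf2rb, the shared chain of the GM-CSF receptor, had 253 and 113 (-1.21, and -0.98 on TPM), and 124 and 42. These genes are of macrophages and their relatives, and the microglia markers moved beside them: 1 of 16 was above 0 in the wild-type pair (median -0.43) and 0 of 16 in the deficient pair (median -0.66), and their summed level was 5567 and 3525 CPM in the deficient pair. Trem2, a lipid receptor of microglia, had 1293 and 828 counts in wild type, and Cx3cr1, the fractalkine receptor, 1687 and 1109. The part of microglia in the ratios of these genes, and in that of Serpina3n, was not tested. Other genes lower in both pairs were Gpr176, an orphan receptor (193 and 43 counts, and 141 and 35), and Hpgd, which inactivates prostaglandins (586 and 217, and 925 and 401). Lrig3, a membrane protein with leucine-rich repeats, was the 1 named gene higher in both, with 50 and 190 counts in wild type (1.41, and 0.71 on TPM) and 48 and 145 in deficient.

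**Figure D4:**
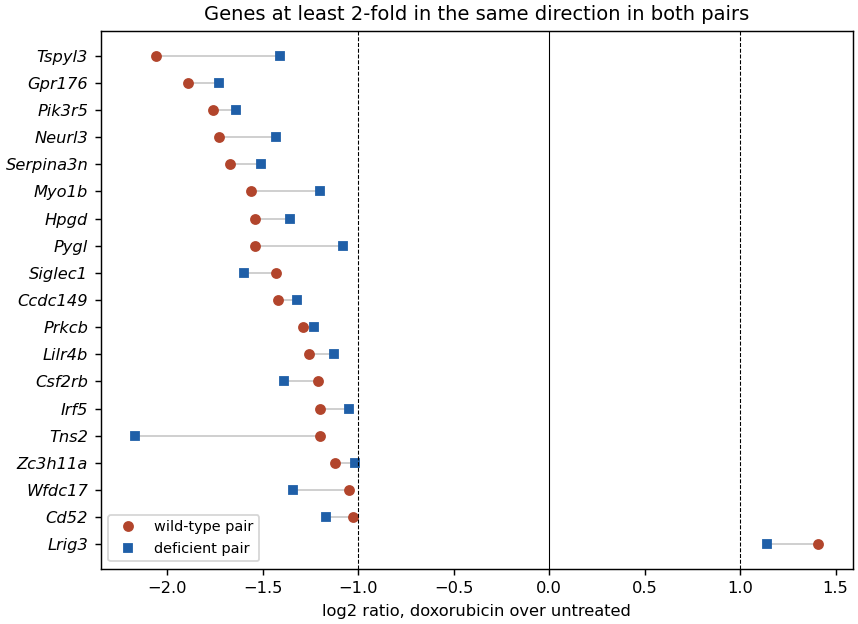
Log2 ratio of doxorubicin over untreated (x axis) for the 19 genes, clone names and pseudogenes left out, that were at least 2-fold in the same direction in both pairs with a mean of at least 5 CPM over the 4 libraries. Circles are the wild-type pair and squares the deficient pair, and 18 of the 19 genes are lower.

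Among genes of at least 5 CPM, the lowest named ratio was that of Ppp1r3b, a glycogen-targeting subunit of protein phosphatase, with 202 and 4 counts, 58.1-fold lower (22.3 to 215), with a log2 ratio of -3.25 that was -2.01 on TPM, against 20 and 56 in the deficient pair. Nfam1, an immune receptor adaptor, had 506 and 61 counts, and 266 and 243 in the deficient pair. Zfpm2, a cofactor of GATA factors, had 33 and 443 counts, 11.7-fold higher (8.19 to 17.2), and 139 and 242. Its log2 ratio of 2.94 was 2.17 on TPM. Ctf1, the cytokine cardiotrophin and the highest of the secretome genes, had 28 and 293 counts, 9.10-fold higher (6.17 to 13.9), and 315 and 356. For Ctf1 the untreated wild-type library alone was low.

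Small shifts ran through whole families of genes with few exon bases. Of 46 cytosolic ribosomal protein genes 42 were above 0 (median 0.20), and of 42 nuclear genes of oxidative phosphorylation 39 (median 0.27), against 49.4% of all genes. None of either list was past 2-fold, and on TPM their medians were 0.11 and 0.21. Rps3 had 4379 and 7085 counts (0.49) and the cytochrome oxidase gene Cox5b 2173 and 3448 (0.46). In the deficient pair the medians were -0.03 and 0.02. These lists had median exon lengths of 2254 and 1950 bases, counting all annotated exons of a gene, and the ratio moved with length. Among genes of at least 50 CPM, in 5 classes of exon length, the shortest had a median of 0.16 and the longest -0.09. The class of 2161 to 3432 bases, which holds the ribosomal median length, had a median of 0.06. On the deposited TPM the medians of the shortest and longest classes were 0.07 and -0.13, and in the deficient pair -0.01 and 0.07. The collagen chains had a median exon length of 7464 bases. The part of length in the ratios of these lists was not tested.

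**Figure D5:**
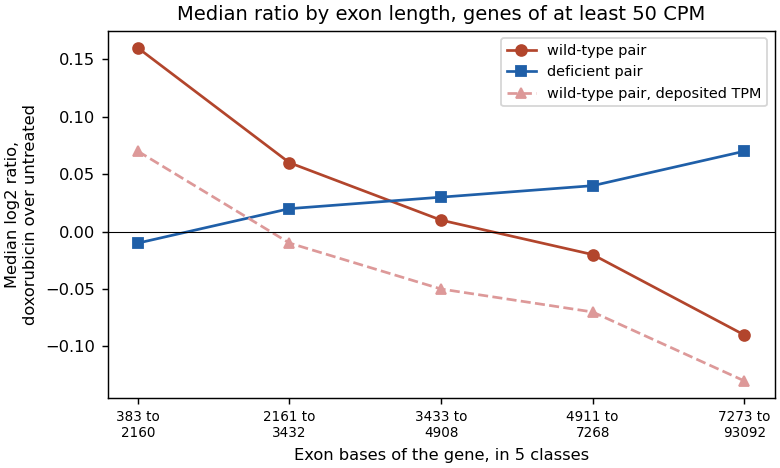
Median log2 ratio (y axis) of genes with at least 50 CPM in 5 classes of exon length (x axis, bases). The wild-type pair falls from 0.16 to -0.09 from the shortest to the longest class, and the deficient pair goes from -0.01 to 0.07.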

How the data were processed

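Per the labels' protocols, SMART-Seq v4 was the library kit for the 4 astrocyte samples; it does not record strand. The authors deposited an estimated count, plus TPM (corrected for transcript length and depth), for each of 55487 genes, per the file headers. The tool DRAGEN and the build GRCm38 come from the submitters' processing notes, and the sources used here do not give the version or any read filter. Estimated counts were rounded. Symbols, positions and exon lengths came from GENCODE M21, which matched 55227 identifiers. Counts were scaled with TMM factors of edgeR 4.0.16 over the 4 libraries, and a pseudocount of 1 CPM was added. A gene was called at a log2 ratio of at least 1 or at most -1 with a pair mean of at least 1 CPM. A count of 0 allows up to 3 counts, or 0.131 to 0.174 CPM by library. Since reads carry no molecular identifiers, intervals and this floor describe counting error alone. Named genes were the 10 highest and 10 lowest ratios from 5 CPM and from 50 CPM, up to 10 per direction 2-fold in both pairs, up to 4 per list, and Creb3l1, Cdkn1a, Mdm2, Pmaip1, Top2a, Top2b, Gfap, Serpina3n and Lcn2. Clone names and pseudogenes were left out, and a few other genes are not reported here. There were 50 gene lists, and they and the comparison were chosen with earlier results of these data known. The intervals were tested on simulated counts that held counting error alone, the error they assume, for well-counted genes only. That test cannot show how they hold for low counts or for scatter beyond counting error. Alternatives were DESeq2 1.42.0 size factors, total counts, TPM, other pseudocounts, minimums and gene sets.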

Additional observations from a re-analysis of the deposited data

Results flagged for a closer look

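For 4 named genes the wild-type pair and the deficient pair went at least 2-fold in opposite directions, and the difference between the pairs was not tested, since it has no replicate. Wdr62, a spindle pole protein, had a log2 ratio of -2.84 in wild type (222 and 16 counts) and 1.30 in deficient (127 and 387), and its wild-type ratio was -0.94 on the deposited TPM. Jag1, a Notch ligand, was at -1.59 (468 and 163 counts) and 1.06 (76 and 204). Zbp1 was at 2.13 in wild type (2.87 on TPM) and -1.42 in deficient. Loxl4, a lysyl oxidase relative, was at 2.88 (0 and 146 counts, 1.77 on TPM) and -1.42 (29 and 0).

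Xist, which lies outside the autosomal comparison, had 2547 counts in the wild-type library labelled doxorubicin and 1 in the untreated one.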

How the results depend on the processing

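The counts of 669 higher and 850 lower genes moved by more than 1.5 times under 3 settings. A pseudocount of 5 CPM gave 79 and 129, a minimum of 5 CPM 183 and 296, and a minimum of 10 CPM 75 and 169. All 3 settings act on low genes by construction. The other 9 alternatives, DESeq2 size factors, total counts, TPM, a pseudocount of 0.5 CPM, no minimum, a minimum over the 4 libraries, all chromosomes, protein-coding genes and the counting interval, gave 517 to 991 higher and 655 to 1185 lower. Of 50 list medians, 14 moved by more than 0.1 on TPM, among them collagen chains (-0.37) and secreted acute-phase genes (-0.33), and 0 with DESeq2 size factors. Minimums of 5 and 10 CPM, no minimum, and a minimum over the 4 libraries moved 6, 7, 8 and 3 medians. Of 239 named genes, 134 ratios moved beyond their counting interval (or by over 0.5 where doxorubicin had 0 counts) on TPM and 115 with a pseudocount of 5 CPM. Of the 96 named genes past 2-fold, 24 and 51 were then under it. None of these 96 changed sign under the 5 settings run on named genes, while 6 of the 239 did on TPM. With 1 library per group, no replicate could be left out. No paired analysis was possible because the wild-type pair is a single pair; a model over both genotypes was not run here.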
